A study of Mus musculus with 8 samples.

Results

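The data described here cover 9 complement genes, C1qa, C1qb, C1qc, C3, C4b, C1ra, C1s1, Serping1 and Cd59a, in nuclei of the mouse forebrain. They were taken by gene symbol from the 54232 genes in the deposited matrices, and all 9 were present. Single-nucleus RNA sequencing had been run on a 2 mm cube of forebrain cut next to the lesion from 10-week-old male mice of the Swiss Webster strain. The 4 groups were control, BCAS, TBI (traumatic brain injury) and the combination BCAS+TBI, with 2 libraries each. BCAS is given in the labels only as an abbreviation, and neither the time between surgery and dissection nor what the control surgery was is stated there. The labels call the libraries of a group biological replicates without saying whether each came from 1 animal, so every p-value below refers to these libraries. Those of comparisons across libraries measure the spread between them. Those of comparisons between cell classes measure how class differences varied over them. The title of the series names cerebral hypoperfusion as a factor that worsens traumatic brain injury, so the comparisons across groups ask whether either surgery, or both together, went with other complement RNA levels.

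Complement is a cascade of secreted proteins that tags and attacks targets. In the classical pathway the recognition molecule C1q, assembled from chains encoded by C1qa, C1qb and C1qc, binds a surface and activates the serine proteases C1r and C1s, which cleave C4 and lead on to cleavage of C3, the central component whose fragments mark surfaces for uptake by phagocytes. C1 inhibitor, the product of Serping1, blocks C1r and C1s, and CD59 stops the membrane attack complex from forming at the end of the cascade. In the brain, C1q and C3 are known for tagging synapses that microglia remove, and C4b and C3 RNA are known markers of reactive astrocytes.

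Promoter sequences were at hand for 6 of the 9 genes in the RefSeq table used (build GRCm38.p6, 250 bases before to 50 bases after a gene's start); C1qa, C4b and Serping1 had no entry. The C1qb and C1qc windows are printed because these neighbouring genes shared their leading cell class and their pattern over libraries. They lie at chr4:136886151-136886450 and chr4:136892865-136893164, both on the minus strand, and are written 5′ to 3′ along the gene. Capitals mark the letters GAGGAA, the core of the motif of the myeloid factor PU.1, or its reverse complement TTCCTC.
C1qb: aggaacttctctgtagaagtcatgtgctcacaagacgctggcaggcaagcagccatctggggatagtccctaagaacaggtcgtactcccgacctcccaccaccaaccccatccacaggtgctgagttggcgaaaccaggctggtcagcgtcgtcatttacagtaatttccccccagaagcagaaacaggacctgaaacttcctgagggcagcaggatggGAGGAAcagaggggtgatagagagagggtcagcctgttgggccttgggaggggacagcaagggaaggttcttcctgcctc
C1qc: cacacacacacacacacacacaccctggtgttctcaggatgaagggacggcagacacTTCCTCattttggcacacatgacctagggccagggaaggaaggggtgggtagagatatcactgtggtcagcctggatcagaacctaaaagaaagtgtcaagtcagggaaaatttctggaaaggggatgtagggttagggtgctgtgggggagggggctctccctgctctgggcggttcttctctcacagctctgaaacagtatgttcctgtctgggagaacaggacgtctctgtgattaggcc
Each of these windows held the motif 1 time, at base 221 of the C1qb window and base 58 of the C1qc window, counted from 1 at the 5′ end. C1ra and Cd59a also held 1 match each, and C3 and C1s1 had no match in these windows. The motif was common, with a match on either strand in 28.3% of the 32851 promoters of the table. The letters TTCNNNGAA, the interferon gamma activated site, were found in C1ra alone among the 6 genes and in 8.3% of all promoters. The NF-kB motif, also searched on both strands, matched in C1qb, C1qc, C1s1 and C3 and in 20.7% of all promoters. A match describes letters and shows no binding.

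In the GRCm38 annotation (GENCODE release M21) the C1q genes lie side by side on chromosome 4, with C1qb at chr4:136880129-136886187, C1qc at chr4:136889804-136893065 and C1qa at chr4:136895917-136898803, all on the minus strand. C1ra at chr6:124512405-124523443 (plus strand) and C1s1 at chr6:124530345-124542359 (minus strand) are also neighbours. C4b lies at chr17:34728380-34743882 and C3 at chr17:57203970-57228136, both on the minus strand. Serping1 lies at chr2:84765387-84775444 on the minus strand and Cd59a at chr2:104095801-104115354 on the plus strand. Some members share stretches of transcript sequence with a related gene, called its copy here, and reads from such stretches may have been given to either gene or to none. The share of 90-base windows also present in the copy was 36.5% for C1ra (copy C1rb), 17.8% for C4b (C4a), 9.07% for C1s1 (C1s2) and 0.828% for Cd59a (Cd59b), and no window was shared among C1qa, C1qb and C1qc. C1s1 also overlaps the predicted gene Gm16567 on the other strand.

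The 8 libraries held 53390 barcodes, of which 48468 passed filters on UMIs (molecules counted), genes and mitochondrial share. Each nucleus was placed in a class by marker genes that include none of the 9 members. The 5 classes compared were microglia-like (598 nuclei, 54 to 95 per library), astrocyte-like (3299), oligodendrocyte-like (2496), fibroblast-like (459, 34 to 87 per library) and neuron-like (35038), and 3741 nuclei fitted no class. A class is a range of a marker score, and 77 microglia-like, 433 astrocyte-like, 165 oligodendrocyte-like, 108 fibroblast-like and 2604 neuron-like nuclei lay near its lower limit. Microglia-like nuclei held a median of 165 microglial marker UMIs per 10000, against 8.40 of astrocyte, 5.77 of oligodendrocyte, 9.70 of neuron and 0 of border macrophage markers. Fibroblast-like nuclei held 72.1 fibroblast marker UMIs per 10000 beside 37.8 of astrocyte markers. The libraries fell into 2 sets by depth, with 1 library of each group in each set. The shallower set (control 1, BCAS 1, TBI 1 and BCAS+TBI 2) held 28118725 to 33363564 UMIs per library and a mitochondrial share of 1.20% to 2.77%, and the deeper set (control 2, BCAS 2, TBI 2 and BCAS+TBI 1) held 42651388 to 56135192 UMIs and a share of 0.511% to 1.04%. Libraries had 6191 to 7882 barcodes against a stated target of 3000 captures per sample, and 289 barcode sequences occurred in more than 1 library.

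Levels are given as CPM, the counts of a gene per 1000000 UMIs summed over the nuclei of a class in a library. A CPM is per UMI and not per length of transcript, so levels are compared between classes and libraries and not between genes.

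The C1q genes were highest in microglia-like nuclei among the 5 classes, the class of the brain's resident phagocytes. C1qa averaged 997 ± 569 CPM (SD, n = 8 libraries), C1qb 239 ± 87.3 CPM and C1qc 250 ± 99.0 CPM. The next class was 34 to 36 times lower for each, a far larger gap than the spread among libraries. In microglia-like nuclei, C1qa was at 1334 CPM in control 1, 573 in control 2, 1499 in BCAS 1, 386 in BCAS 2, 1440 in TBI 1, 500 in TBI 2, 463 in BCAS+TBI 1 and 1784 in BCAS+TBI 2. Each group thus held 1 library near the top and 1 near the bottom of the range, and the groups overlapped. C1qb was at 295 CPM in control 1, 164 in control 2, 272 in BCAS 1, 104 in BCAS 2, 341 in TBI 1, 153 in TBI 2, 258 in BCAS+TBI 1 and 322 in BCAS+TBI 2. C1qc was at 321, 155, 307, 134, 351, 181, 172 and 380 CPM in the same order of libraries. These values rest on 36 to 155 UMIs per library for C1qa, 11 to 36 for C1qb and 13 to 37 for C1qc.

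**Figure D1:**
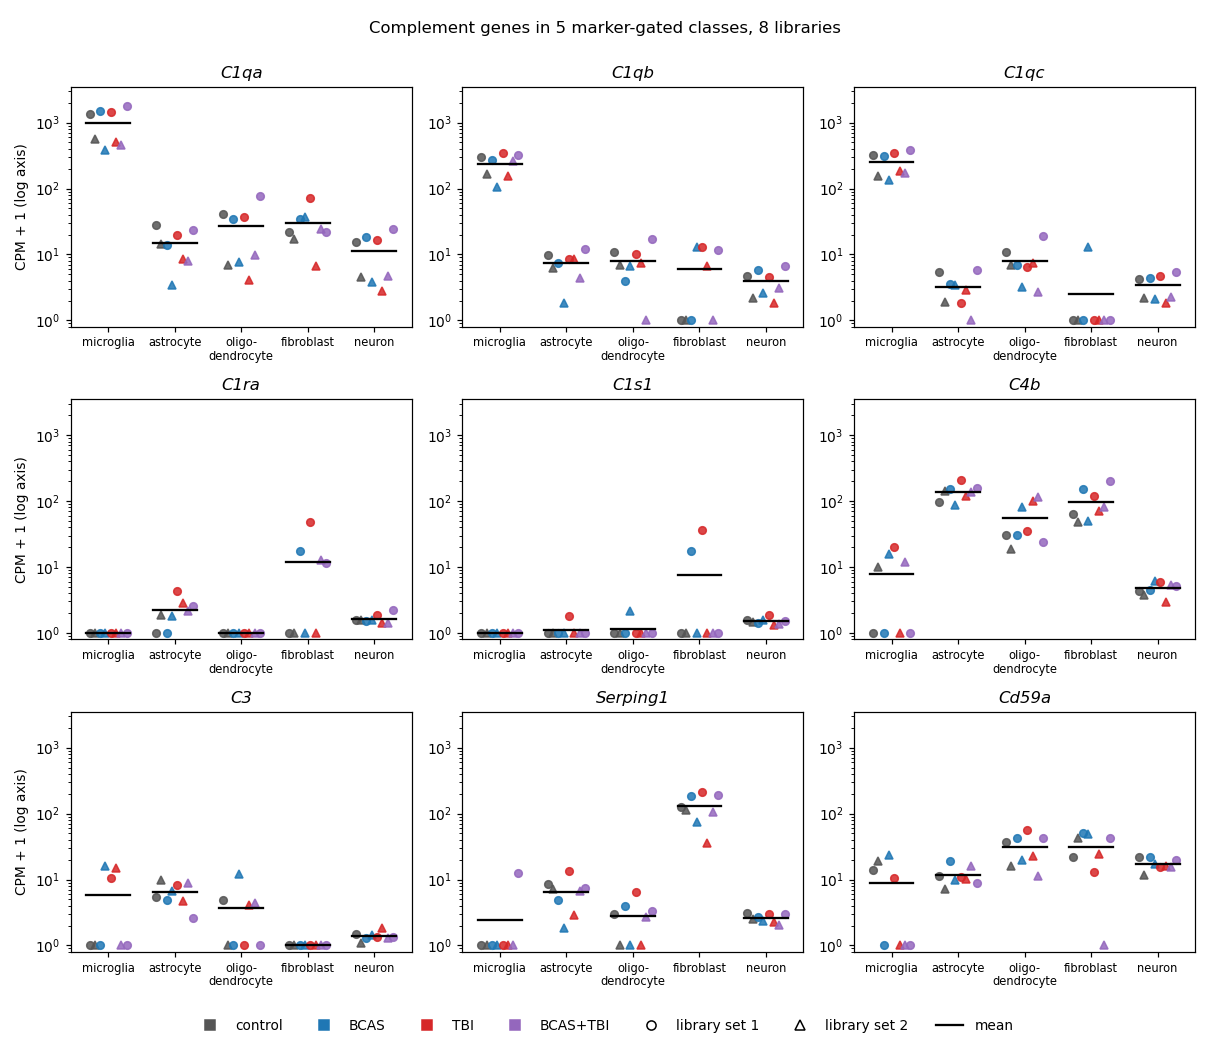
Level of each complement gene (CPM + 1, log axis) in 5 classes of nuclei, 1 point per library. Colour shows the group and the shape of a point shows the library set (circles shallower, triangles deeper). The C1q genes peak in microglia-like nuclei, C4b in astrocyte-like and fibroblast-like nuclei and Serping1 in fibroblast-like nuclei.

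Against each of the other 4 classes the C1q genes were past the threshold in microglia-like nuclei (edgeR's quasi-likelihood test with library as a block, adjusted p under 0.05 over all genes and class pairs). For C1qa the log2 difference was 5.77 (SE 0.16, adjusted p = 9.29e-38) over astrocyte-like, 4.91 (SE 0.16) over oligodendrocyte-like, 5.08 (SE 0.24) over fibroblast-like and 6.20 (SE 0.13) over neuron-like nuclei. C1qb differed by 4.89 (SE 0.26), 4.67 (SE 0.28), 5.44 (SE 0.45) and 5.91 (SE 0.22) in that order of classes. C1qc differed by 6.49 (SE 0.28), 4.83 (SE 0.26), 7.49 (SE 0.51) and 6.25 (SE 0.20). As background, 18%, 18.2%, 15.3% and 21.6% of all 10771 genes tested were higher in microglia-like nuclei than in astrocyte-like, oligodendrocyte-like, fibroblast-like and neuron-like nuclei. The 20 border macrophage-like nuclei, phagocytes of the meninges and vessel walls, had C1q UMIs as well, with C1qa at 966 CPM pooled from 33 UMIs, beside the microglia-like pool at 938 CPM. C1qb was at 381 CPM in the border macrophage-like and 230 CPM in the microglia-like pool, and C1qc at 556 and 240 CPM, from 13 and 19 UMIs in border macrophage-like nuclei.

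A UMI of C1qa was seen in 53.3% of the 598 microglia-like nuclei (exact binomial interval 49.3% to 57.4%, counting error only), C1qb in 22.7% and C1qc in 23.4%. After thinning each nucleus to 500 UMIs the shares were 33.1%, 10.8% and 11.1%. As a background, a C1qa UMI was seen in 3.34% of neuron-like nuclei at a median depth of 6105 UMIs, against 1147 UMIs in microglia-like nuclei. The shares in astrocyte-like, oligodendrocyte-like and fibroblast-like nuclei were 2.33%, 2.85% and 4.14%, at median depths of 1934, 1386 and 1764 UMIs. The C1q genes were seen in overlapping sets of nuclei, with C1qb in 30.7% of C1qa-positive and 13.6% of C1qa-negative microglia-like nuclei, and C1qc in 30.4% and 15.4%. These counts move with the depth of a nucleus, whose part in them was not tested. No C1q UMI was seen in 208 of the 598 nuclei, 1 of the genes in 223, 2 in 129 and all 3 in 38.

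Among libraries, C1q levels in microglia-like nuclei followed the library sets. C1qa in microglia-like nuclei ranged from 1334 to 1784 CPM in the shallower set and from 386 to 573 CPM in the deeper set. C1qb ranged from 272 to 341 CPM against 104 to 258 CPM, and C1qc from 307 to 380 CPM against 134 to 181 CPM. The sets did not overlap for any of the 3 genes. With surgery group in the model, the shallower set was higher by 1.74 on the log2 scale for C1qa (SE 0.17, edgeR adjusted p = 6.11e-09), by 0.95 for C1qb (SE 0.25, adjusted p = 0.00279) and by 1.16 for C1qc (SE 0.25, adjusted p = 0.000257). In microglia-like nuclei 11.1% of the 2765 genes tested were higher in the shallower set. Kept to nuclei of at least 1000 UMIs, C1qa still ranged from 1305 to 1972 CPM in the shallower and from 388 to 565 CPM in the deeper set. The test of the sets was added after the levels were seen, and depth, mitochondrial share and whatever else differed between the sets cannot be told apart.

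The same split was present outside microglia-like nuclei. C1qa was higher in the shallower set by 1.47 on the log2 scale in astrocyte-like (SE 0.35, edgeR adjusted p = 0.00167), 2.81 in oligodendrocyte-like (SE 0.35, adjusted p = 1.58e-05) and 2.38 in neuron-like nuclei (SE 0.16, adjusted p = 1.09e-05). Over all members, 12 of the 20 gene and class pairs tested passed the threshold between the sets, 11 of them higher in the shallower set, beside 42% of all 48227 pairs in either direction. The exception was C4b in oligodendrocyte-like nuclei, which was lower there.

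Within neuron-like nuclei most C1q UMIs lay in a single cluster. This cluster held 2218 nuclei in all, of which 1225 were neuron-like. These 1225 had a median of 19194 UMIs and 7 oligodendrocyte or astrocyte markers among their 10 leading genes, Mag, Mog and Slc1a3 among them. They held 13.8% of all UMIs of neuron-like nuclei. Their shares of the member UMIs were 68.6% for C1qa, 66.2% for C1qb, 66.5% for C1qc and 52.0% for C4b. Of the 22 clusters of neuron-like nuclei, 5 had more markers of other cell types than of neurons among their 10 leading genes and are called mixed here. Besides this cluster, 1 had 4 astrocyte markers and 11.2% of the C4b UMIs, 1 had 10 oligodendrocyte markers and 7.80% of the C4b UMIs, and the remaining 2 were in the set through 1 gene each, a fibroblast marker and a haemoglobin gene. The 5 clusters held 15.1% of the neuron-like nuclei (5294 of 35038) and 23.6% of their UMIs, against 72.6% of the C1qa, 72.1% of the C1qb, 72.3% of the C1qc and 73.1% of the C4b UMIs. For the other members the share was 17.6% (C1s1) to 26.1% (Serping1), on either side of the share of all UMIs. Without the 5 clusters the mean of C1qa in neuron-like nuclei was 3.83 ± 2.95 CPM in place of 10.3 CPM, and its difference from microglia-like nuclei became 7.54 on the log2 scale. For comparison, pooled microglia-like and neuron-like nuclei held the microglial markers P2ry12 at 1059 and 27.0 CPM, Cx3cr1 at 1645 and 15.98 CPM and Csf1r at 1449 and 7.77 CPM, and the part of microglial RNA in the neuron-like values was not tested. C1qa in neuron-like nuclei was 1.08% to 1.31% of its microglia-like level in the shallower libraries and 0.362% to 0.796% in the deeper ones.

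**Figure D2:**
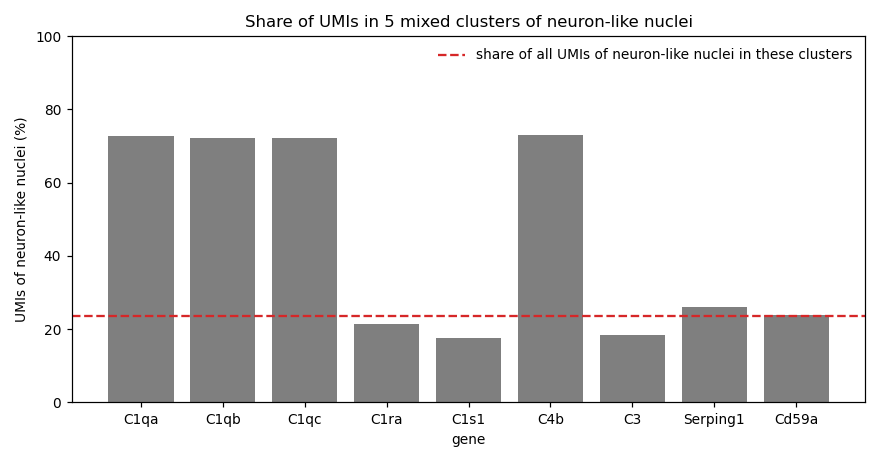
Share of each gene's neuron-like UMIs (percent, bars, all 8 libraries pooled) that fell in the 5 mixed clusters, with a dashed line at the 23.6% of all neuron-like UMIs in them. Bars for C1qa, C1qb, C1qc and C4b stand at 72.1% to 73.1%, and the other 5 genes lie near the line, from 17.6% to 26.1%.

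The proteases that C1q activates were scarce. C1ra and C1s1 had their highest mean CPM among the 5 classes in fibroblast-like nuclei, cells of the meninges and vessel sheaths, but from 7 UMIs of C1ra in 5 nuclei and 4 UMIs of C1s1 in 3 nuclei. C1ra was at 47.9 CPM in TBI 1 (4 UMIs), 16.7 in BCAS 1, 11.6 in BCAS+TBI 1 and 10.5 in BCAS+TBI 2 (1 UMI each) and 0 in the other 4 libraries. C1s1 was at 35.9 CPM in TBI 1 (3 UMIs) and 16.7 in BCAS 1 (1 UMI), with no UMI in the other 6 libraries. Outside the 5 classes, the 292 mural-like nuclei, cells of vessel walls, had a higher pooled level of C1s1 than fibroblast-like nuclei. In that small pool 3 UMIs are 10.6 CPM. No microglia-like nucleus held a UMI of either gene (0 of 598, which allows a share of up to 0.502% of nuclei with a UMI). Both genes were under the filter on low counts in the test between classes. With no filter, fibroblast-like nuclei exceeded neuron-like nuclei by 2.90 on the log2 scale for C1ra (SE 0.71, edgeR adjusted p = 0.00041) and by 2.38 for C1s1 (SE 0.89, adjusted p = 0.0397). Fibroblast-like nuclei were chosen from these same levels, which rest on the 7 and 4 UMIs above, so these tests are descriptions. For C1s1 the difference of microglia-like from fibroblast-like nuclei did not pass the threshold (-7.37, SE 3.03, edgeR adjusted p = 0.0733). Those of astrocyte-like (-4.48, SE 1.31) and oligodendrocyte-like nuclei (-3.82, SE 1.32) did.

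Most UMIs of the 2 proteases came from the large neuron-like class, which had 163 of C1ra and 136 of C1s1, and they were unevenly spread there. Neuron-like nuclei with excitatory markers held 86 C1s1 UMIs in 13008 nuclei, and nuclei with inhibitory markers held 0 in 6345. Leaving out the 5 mixed clusters, the counts were 74 UMIs in 11841 excitatory nuclei (0.735 CPM, seen in all 8 libraries) and 0 in 5068 inhibitory nuclei, where 3 UMIs would be 0.0901 CPM. C1ra followed with 71 and 4 UMIs, or 0.705 and 0.120 CPM. A cluster with 4485 neuron-like nuclei, led by Pdzrn3, Exph5 and Igfn1, held 63 C1ra UMIs, 38.7% of those in the class. These splits were described after the values were seen and were not tested.

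C4b, the component cleaved by C1s, was highest in astrocyte-like nuclei at 137 ± 39.0 CPM (SD, n = 8), followed by fibroblast-like nuclei at 97.4 ± 54.8 CPM and oligodendrocyte-like nuclei at 53.8 ± 38.6 CPM. Microglia-like nuclei, which led in C1q, were at 6.71 ± 7.73 CPM. In astrocyte-like nuclei C4b was at 95.8 CPM in control 1, 141 in control 2, 151 in BCAS 1, 86.9 in BCAS 2, 211 in TBI 1, 117 in TBI 2, 134 in BCAS+TBI 1 and 157 in BCAS+TBI 2. The highest library was TBI 1 and the lowest BCAS 2, and the libraries with TBI overlapped those without. A UMI was seen in 19.2% of astrocyte-like nuclei (17.9% to 20.6%) and 6.60% after thinning, against 1.00% of microglia-like nuclei.

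Astrocyte-like nuclei exceeded fibroblast-like nuclei in C4b by 0.88 on the log2 scale (SE 0.30, edgeR adjusted p = 0.0103), oligodendrocyte-like nuclei by 1.36 (SE 0.20, adjusted p = 2.81e-08) and neuron-like nuclei by 5.06 (SE 0.16). Microglia-like nuclei were lower than astrocyte-like nuclei by a log2 difference of -4.53 (SE 0.58, adjusted p = 7.56e-10). Between oligodendrocyte-like and fibroblast-like nuclei the difference of -0.47 (SE 0.36) did not pass the test (adjusted p = 0.287). Without the 5 mixed neuron-like clusters the difference between astrocyte-like and neuron-like nuclei became 6.52 (SE 0.17).

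C4b varied within astrocyte-like and fibroblast-like nuclei. Only the nuclei of a cluster that were gated into the class are counted here. The whole clusters held 2422, 941, 814 and 264 nuclei in the order given below. The astrocyte-like cluster led by Ephb1, Lypd6, Emx2os and Tnc (2246 nuclei) had 164 ± 45.4 CPM, and the cluster led by Erbb4, Tmem117, Etnppl and Gria1 (901 nuclei) had 79.8 ± 22.96 CPM, with the first higher in 8 of 8 libraries. The fibroblast-like cluster led by Slc7a11, Lama1 and Slc6a20a (302 nuclei) had 146 ± 87.6 CPM, and the cluster led by Col25a1, Adamtsl3 and Slc47a1 (156 nuclei) had 15.9 ± 21.1 CPM, again with the first higher in 8 of 8 libraries. The second fibroblast-like value rests on 5 UMIs. All 7 C1ra and 4 C1s1 UMIs of fibroblast-like nuclei were in the first of these clusters. These comparisons within classes are descriptions, with no test.

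In oligodendrocyte-like nuclei, the myelin-forming cells, C4b was at 29.8 CPM in control 1, 17.8 in control 2, 29.99 in BCAS 1, 80.6 in BCAS 2, 34.2 in TBI 1, 101 in TBI 2, 114 in BCAS+TBI 1 and 22.8 in BCAS+TBI 2. The 3 high libraries were BCAS 2, TBI 2 and BCAS+TBI 1 of the deeper set, while control 2 of that set was the lowest of all 8. The deeper set was higher, with a log2 difference of the shallower from the deeper set of -1.29 (SE 0.32, edgeR adjusted p = 0.00364). In fibroblast-like nuclei C4b was at 61.8, 47.7, 151, 48.8, 120, 69.2, 81.5 and 200 CPM in the same order of libraries. Here the sets differed the other way, by 1.11 (SE 0.40, adjusted p = 0.0341), and both controls were among the 4 lowest. In astrocyte-like nuclei the sets did not differ past the threshold (0.35, SE 0.16, adjusted p = 0.0852).

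C3, the central component, was scarce in all 5 classes. Its mean was highest in astrocyte-like nuclei at 5.45 ± 2.47 CPM, from 42 UMIs in 28 of 3299 nuclei, or 0.849%, with microglia-like nuclei next at 4.78 ± 6.77 CPM from 4 UMIs. By library it was at 4.49 CPM in control 1, 8.80 in control 2, 3.90 in BCAS 1, 5.69 in BCAS 2, 7.41 in TBI 1, 3.73 in TBI 2, 7.97 in BCAS+TBI 1 and 1.60 in BCAS+TBI 2, each from 1 to 10 UMIs. The highest of the 8 libraries was control 2 and the lowest BCAS+TBI 2, and the groups overlapped. No fibroblast-like nucleus held a UMI (0 of 459, which allows up to 0.654% of nuclei). Astrocyte-like nuclei were chosen as the leading class from these same levels, so the tests that follow are descriptions. With no filter on low counts astrocyte-like exceeded neuron-like nuclei by 3.64 on the log2 scale (SE 0.34, edgeR adjusted p = 1.25e-25). They did not differ past the threshold from oligodendrocyte-like nuclei (0.92, edgeR adjusted p = 0.163). Microglia-like nuclei did not differ past the threshold from astrocyte-like nuclei either (log2 difference -0.89, SE 0.68, edgeR adjusted p = 0.537). Outside the 5 classes, the 50 ependymal-like nuclei, the ciliated lining of the ventricles, held 15 C3 UMIs in 10 nuclei, a pooled level of 133 CPM; 24 of these nuclei had only 3 ependymal markers. Within astrocyte-like nuclei, 36 of the 42 UMIs were in the cluster led by Ephb1, which also had the higher C4b, and 1 was in the cluster led by Erbb4.

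Serping1, which encodes C1 inhibitor, was highest in fibroblast-like nuclei and 23.2 times lower in the next class, astrocyte-like nuclei (5.58 ± 3.58 CPM). In fibroblast-like nuclei it was at 124 CPM in control 1, 111 in control 2, 184 in BCAS 1, 73.2 in BCAS 2, 215 in TBI 1, 34.6 in TBI 2, 105 in BCAS+TBI 1 and 189 in BCAS+TBI 2, from 6 to 21 UMIs. The 4 shallower libraries were the 4 highest, and the sets differed by 1.25 on the log2 scale (SE 0.38, edgeR adjusted p = 0.0122). A UMI was seen in 17.2% of fibroblast-like and 1.03% of astrocyte-like nuclei. Fibroblast-like nuclei exceeded neuron-like nuclei by 5.73 on the log2 scale (SE 0.26). Against fibroblast-like nuclei, the log2 difference was -4.10 (SE 0.29) in astrocyte-like, -5.88 (SE 0.39) in oligodendrocyte-like and -6.57 (SE 0.64) in microglia-like nuclei, all past the threshold. Both fibroblast-like clusters held it, at 161 ± 69.4 CPM in the cluster led by Slc7a11 and 70.5 ± 51.0 CPM in the cluster led by Col25a1.

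Cd59a, which encodes the mouse form of the membrane-bound inhibitor CD59, was detected in all 5 classes with a narrower range of means than the C1q genes, C4b or Serping1. It stood at 30.1 ± 15.9 CPM in oligodendrocyte-like, 29.9 ± 18.6 CPM in fibroblast-like, 16.4 ± 3.51 CPM in neuron-like, 10.7 ± 3.91 CPM in astrocyte-like and 7.85 ± 9.17 CPM in microglia-like nuclei. In oligodendrocyte-like nuclei it was at 35.8 CPM in control 1, 14.8 in control 2, 42.0 in BCAS 1, 19.04 in BCAS 2, 55.9 in TBI 1, 22.1 in TBI 2, 10.4 in BCAS+TBI 1 and 41.0 in BCAS+TBI 2. All 4 shallower libraries were above all 4 deeper ones, a log2 difference of 1.39 (SE 0.29, edgeR adjusted p = 0.000919).

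Oligodendrocyte-like nuclei exceeded astrocyte-like nuclei in Cd59a, with a log2 difference of astrocyte-like from oligodendrocyte-like nuclei of -1.42 (SE 0.26, edgeR adjusted p = 4.43e-06). They exceeded neuron-like nuclei by 0.70 (SE 0.19, adjusted p = 0.00127), a call lost without TBI 1 (0.45, adjusted p = 0.0554). Microglia-like nuclei were lower than oligodendrocyte-like nuclei by a log2 difference of -1.995 (SE 0.54, adjusted p = 0.00137). Oligodendrocyte-like and fibroblast-like nuclei were neighbours that did not differ past the threshold (0.19, SE 0.37, adjusted p = 0.712). Outside the 5 classes Cd59a was higher: endothelial-like nuclei, the lining of blood vessels, were at 162 ± 49.5 CPM with 334 UMIs, and choroid plexus-like nuclei at 95.7 ± 36.9 CPM with 91 UMIs. Endothelial-like levels ran from 115 CPM in TBI 2 to 252 CPM in BCAS 1, so the lowest library there was above the highest oligodendrocyte-like one. Among neuron-like nuclei, those with inhibitory markers had 20.8 ± 4.80 CPM and those with excitatory markers 15.1 ± 3.62 CPM, higher in inhibitory nuclei in 8 of 8 libraries. The cluster with the highest pooled level (38.8 CPM) was led by Synpo2, Lef1, Prkcd and Tcf7l2.

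**Figure D3:**
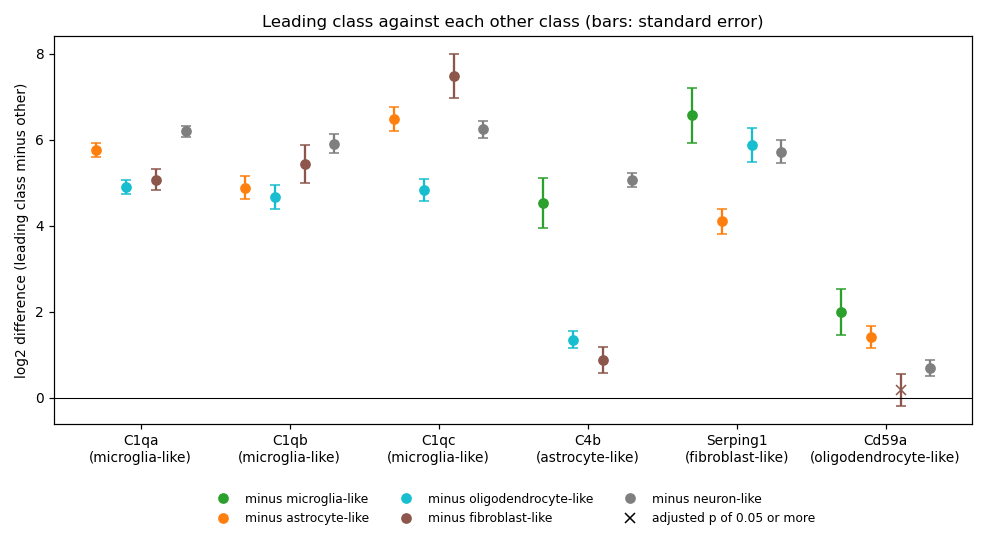
Log2 difference between the leading class of each of 6 complement genes and each of the other 4 classes, with standard errors; crosses mark differences with an adjusted p of 0.05 or more. The leading class was chosen from these same levels, and a gene could pass the filter on low counts through that class alone. The count is thus a description: of 24 differences, 23 pass the threshold, and the cross is Cd59a in oligodendrocyte-like against fibroblast-like nuclei.

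Over all 10 pairs of classes, the 6 members that passed the filter on low counts gave 60 differences, of which 41 were past the threshold, beside 52.1% of the 107710 differences tested over all genes. C1ra, C1s1 and C3 did not pass that filter, so these 60 do not speak for all members.

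Genes whose levels followed each member over the 40 sums of 5 classes and 8 libraries were ranked by Pearson's r among 10045 candidates. The sums share class, library and depth, so the ranking is a description. Closest to C1qa were Ctss (r = 0.96), a lysosomal protease, and Fcer1g and Mir142hg. Mpeg1 was closest to C1qb (r = 0.97) and Cd37 to C1qc (r = 0.99). Gramd3 was closest to C4b (r = 0.90), Adamts12 to Serping1 (r = 0.96), Gbp2 to both C1ra (r = 0.83) and C1s1 (r = 0.74), Trnt1 to Cd59a (r = 0.73) and Hacd2 to C3 (r = 0.62). Among the members, C1qa and C1qb had r = 0.96, C1qb and C1qc r = 0.98, and C1ra and C1s1 r = 0.87.

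A list of 53 further complement genes was examined by role. Between classes 18 of them passed the filter on low counts, and 126 of their 180 differences were past the threshold, beside the 52.1% over all genes. These genes, too, could pass the filter through a single class. The genes named were those with the highest CPM of their role in a class, a choice per UMI that says nothing of their order per length. For a gene named by this choice the classes where it led its role are printed, and other classes can hold more of it. Calr, for example, was higher in microglia-like than in oligodendrocyte-like nuclei by 0.50 on the log2 scale. Among initiators Colec12, a collectin on the cell surface, was at 1063 ± 268 CPM in fibroblast-like nuclei, 26.3 CPM in astrocyte-like and 10.4 CPM in neuron-like nuclei. Masp1, a protease of the lectin pathway, was at 21.7 CPM in microglia-like and 18.4 CPM in oligodendrocyte-like nuclei. Cfp, properdin, which stabilises the alternative pathway convertase, ran from 3.41 CPM in microglia-like to 11.6 CPM in astrocyte-like nuclei. Among receptors Lrp1, a scavenger receptor, was at 452 CPM in microglia-like, 425 CPM in fibroblast-like and 243 CPM in astrocyte-like nuclei. Calr, calreticulin, was at 166 CPM in oligodendrocyte-like and 123 CPM in neuron-like nuclei. Itgam, a chain of complement receptor CR3, was at 182 CPM in microglia-like nuclei and exceeded neuron-like nuclei by 6.78 on the log2 scale. The anaphylatoxin receptors had few counts in the small microglia-like class, with 38 UMIs of C3ar1, 21 of C5ar1 and 34 of C5ar2. In that pool 3 UMIs are 4.06 CPM, so few counts do not mean a low level. Among terminal components C7, which enters the membrane attack complex, was at 4.16 CPM in fibroblast-like, 3.89 CPM in neuron-like and 1.44 CPM in microglia-like nuclei, and C8g at 2.05 CPM in astrocyte-like and 1.53 CPM in oligodendrocyte-like nuclei. The microglia-like values of Cfp and C7 lie under the 4.06 CPM of 3 UMIs. In the fibroblast-like pool 3 UMIs are 3.47 CPM, so C7 there is near this floor.

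Among other inhibitors, Clu, clusterin, was highest of the 5 classes in astrocyte-like nuclei at 1244 ± 563 CPM, from 1389 to 1867 CPM in the shallower and 577 to 925 CPM in the deeper libraries. Vtn, vitronectin, was at 669 CPM in fibroblast-like nuclei. Csmd3, a large gene of the CUB and sushi family, was at 5950 CPM in microglia-like and 1389 CPM in oligodendrocyte-like nuclei, and its relative Csmd1 at 4298 CPM in neuron-like nuclei. Csmd3 was lower in oligodendrocyte-like than in neuron-like nuclei, with a log2 difference of -0.36.

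No member passed the threshold in any of the surgery comparisons. The 4 groups were fitted together in each class, with no term for library set. The difference between the sets thus counted as spread within groups. TBI averaged over BCAS, BCAS averaged over TBI, their interaction and the comparisons of single groups were tested. In each, edgeR's quasi-likelihood test called 0 of 48227 gene and class pairs (0%), and 0 of the 20 pairs that held a member. At an unadjusted p under 0.05 there were 407 pairs (0.844%) for the average effect of TBI and 400 (0.829%) for that of BCAS. The interaction had 356 (0.738%), TBI against control 347 (0.72%), BCAS against control 319 (0.661%), BCAS+TBI against control 318 (0.659%) and BCAS+TBI against TBI 374 (0.775%). No pair with a member was among them. With library set as a block, which also called no member, 2, 2, 2, 1, 2, 4 and 3 of the 20 member pairs had an unadjusted p under 0.05 in that order of comparisons, beside 4.57%, 3.77%, 4.32%, 3.62%, 3.65%, 3.2% and 4.4% of all pairs. The 4 for BCAS+TBI against control were C4b in oligodendrocyte-like (log2 fold change 1.53, SE 0.46) and fibroblast-like nuclei (1.26, SE 0.56), C1qa in oligodendrocyte-like nuclei (0.91, SE 0.42) and C1qb in neuron-like nuclei (0.70, SE 0.21), each with an edgeR adjusted p of 1.00. Of the neuron-like C1qb UMIs 72.1% lay in the 5 mixed clusters, and the fit with this block was not run without them. DESeq2 called 1 pair, for BCAS against control, and no member, and had 1 member pair at an unadjusted p under 0.05, C4b in oligodendrocyte-like nuclei for BCAS+TBI against control. In simulated data with the same depths this test recovered 27% to 35% of genes changed 2-fold and 73% to 91% of genes changed 4-fold for TBI averaged over BCAS. The simulation did not hold the shared difference between library sets, so these shares are not shown to apply to the fit of the real libraries.

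**Figure D4:**
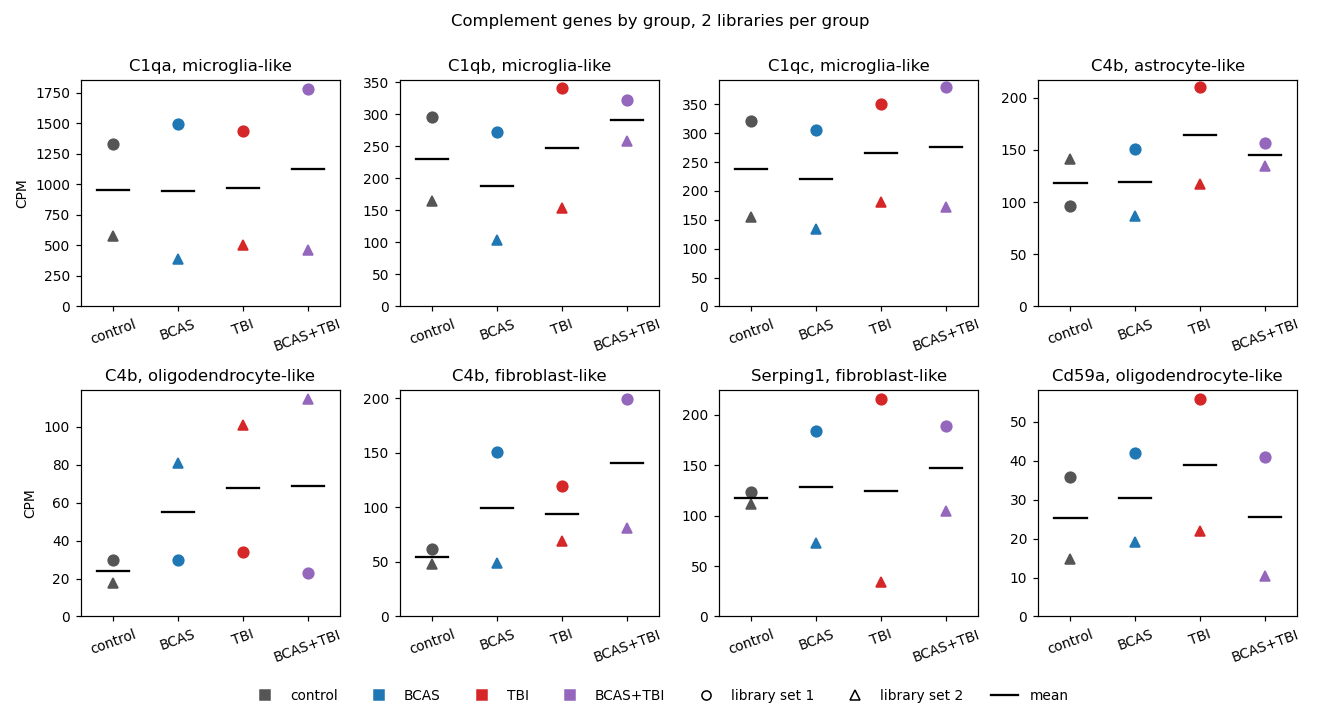
Level of C1qa, C1qb and C1qc in microglia-like nuclei, C4b in astrocyte-like, oligodendrocyte-like and fibroblast-like nuclei, Serping1 in fibroblast-like nuclei and Cd59a in oligodendrocyte-like nuclei (CPM, linear axis from 0) by group, 1 point per library. Colour shows the group and the shape of a point shows the library set (circles shallower, triangles deeper). The 2 libraries of a group often lie further apart than the groups do, as for C1qa at 1334 and 573 CPM in control.

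For TBI averaged over BCAS, the log2 fold change in microglia-like nuclei was 0.18 (SE 0.54) for C1qa, 0.48 (SE 0.38) for C1qb and 0.34 (SE 0.40) for C1qc. Downstream, C4b had 0.40 (SE 0.26) in astrocyte-like, 0.86 (SE 0.54) in oligodendrocyte-like and 0.70 (SE 0.50) in fibroblast-like nuclei. Serping1 in fibroblast-like nuclei had 0.12 (SE 0.51) and Cd59a in oligodendrocyte-like nuclei 0.29 (SE 0.53). The adjusted p was 1.00 for each (edgeR). Of the 20 member pairs, 17 had a positive value with a median of 0.24, beside 24669 of all 48227 pairs and a median of 0.00. Under the block for library set 16 were positive with a median of 0.14, beside 24497 of all pairs. The 20 pairs come from 9 genes in the same libraries and are not independent, so these counts are descriptions and were not tested. With library set as a block the C4b values were 0.39 (SE 0.16, unadjusted p = 0.0239) in astrocyte-like and 0.88 (SE 0.31, unadjusted p = 0.0108) in oligodendrocyte-like nuclei, and neither passed the adjusted threshold (adjusted p = 0.990).

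For BCAS averaged over TBI the values were 0.08 (SE 0.54) for C1qa, -0.11 (SE 0.38) for C1qb and -0.08 (SE 0.40) for C1qc in microglia-like nuclei. C4b had -0.10 (SE 0.26) in astrocyte-like, 0.72 (SE 0.54) in oligodendrocyte-like and 0.75 (SE 0.50) in fibroblast-like nuclei. Serping1 had 0.28 (SE 0.51) in fibroblast-like and Cd59a -0.25 (SE 0.53) in oligodendrocyte-like nuclei. Of the 20 member pairs 12 were positive with a median of 0.17, beside 24684 of all 48227 pairs. None passed the threshold.

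The group with both surgeries was compared with control and with TBI alone. Against control, C4b in BCAS+TBI had a log2 fold change of 1.58 (SE 0.79) in oligodendrocyte-like and 1.46 (SE 0.69) in fibroblast-like nuclei, at unadjusted p values of 0.0731 and 0.0517 (edgeR, adjusted p = 1.00). Against TBI alone, C4b had 0.12 (SE 0.74) in oligodendrocyte-like, 0.69 (SE 0.66) in fibroblast-like and -0.17 (SE 0.37) in astrocyte-like nuclei, and C1qa 0.21 (SE 0.75) in microglia-like nuclei. The interaction for C1qa was 0.27 (SE 1.07), an error wide enough to hold a change in either direction. This fit held group only. The difference between library sets, with C1qa means of 1514 CPM in the shallower and 481 CPM in the deeper set, is therefore part of that error. Of the 53 listed genes, 40 entered these tests in 93 pairs and none was called. At an unadjusted p under 0.05, 2 of the 93 differed for TBI averaged over BCAS. One of them was Colec12 in astrocyte-like nuclei (log2 fold change -1.05, SE 0.27, edgeR adjusted p = 1.00).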

How the data were processed

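Single-nucleus RNA libraries (10x Genomics 3′ kit, flash-frozen tissue) were deposited as raw UMI counts per gene and barcode, which per the file headers came from Cell Ranger 7.0.0. The submitters' processing notes name builds GRCm38 and mm10 and the tool Seurat. Whether introns and strand were used in counting is not given in the sources used here. Barcodes under 500 UMIs, under 300 genes or above 5% mitochondrial UMIs were removed (4922 in all). A nucleus joined a class only if at least 3 distinct markers of it were seen. Its marker share was divided by a reference, the 90th percentile over nuclei with at least 0.5 of the class's markers seen. The resulting relative share had to be at least 0.25 and at least 2 times that of the next class. Near the limit means a relative share below 0.5. The gate drops many mixed nuclei, and no doublet caller was run. Clusters (scanpy 1.11.5, Leiden resolution 1, 30 components) left members and listed complement genes out of the variable genes.

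Counts were summed per library and class and tested with edgeR 4.0.16 (TMM, glmQLFit, glmQLFTest, two-sided, minimum count 10) with Benjamini-Hochberg adjustment over all genes and classes at 0.05. Surgery models held group only; class models held class and library. DESeq2 1.42.0, other normalization, filters, gates, depths, blocks and leaving out each library were alternatives. The scripts were tested on simulated data. Floors use 3 UMIs, and intervals are exact at 95%.

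The members and lists were chosen with earlier results of these data known. Named by rule were the 9 members in their leading class, the listed genes highest of their role in a class and the genes most like each member by r of log2(CPM + 10). Named after their values were seen were C4b in oligodendrocyte-like and fibroblast-like nuclei and the endothelial-like, mural-like, choroid plexus-like, ependymal-like and border macrophage levels. So were Itgam, Colec12 in the surgery test, the anaphylatoxin receptors, the markers and the clusters within classes. Some listed genes are not reported here.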

Additional observations from a re-analysis of the deposited data

Results flagged for a closer look

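In groups of 4 libraries, those with and those without TBI, 18 sets of member levels in their leading classes were screened for a library far from the other 3, which chance flags in about 1 of 20 groups. In fibroblast-like nuclei without TBI, C1ra in BCAS 1 stood at 16.7 CPM with the other 3 libraries at 0. C1s1 in BCAS 1 stood at 16.7 CPM with the other 3 at 0, and among libraries with TBI, C1s1 in TBI 1 stood at 35.9 CPM with the other 3 at 0. These levels are 1, 1 and 3 UMIs. With the other 3 libraries at 0 a single UMI is enough for such a flag, so the rate of 1 in 20 does not apply to them.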

How the results depend on the processing

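No member was called in any surgery comparison under any of the 22 settings. In the order TBI averaged over BCAS, BCAS averaged over TBI, interaction, TBI against control, BCAS against control, BCAS+TBI against control and BCAS+TBI against TBI, calls over all genes were 0 throughout; with no filter on low counts they were 12, 10, 7, 9, 6, 7 and 6, with library set as a block 5, 0, 1, 5, 0, 1 and 2, and with DESeq2 1 for BCAS against control and 0 elsewhere. The cause was not tested. Reversed values of BCAS averaged over TBI were C1qa at -0.0304 (at least 1000 UMIs), C1qc at 0.0167 (clusters) and 0.0448 (at least 1000 UMIs) and Serping1 at -0.14 (clusters), and of TBI averaged over BCAS Serping1 at -0.00134 (library set block). Leaving out each library in turn, TBI averaged over BCAS ran from -0.49 to 0.82 for C1qa, 0.12 to 0.84 for C1qb, -0.0213 to 0.66 for C1qc, -0.72 to 0.64 for Serping1 and -0.34 to 0.67 for Cd59a, and for C4b from 0.15 to 0.60 in astrocyte-like, 0.07 to 1.37 in oligodendrocyte-like and 0.25 to 1.19 in fibroblast-like nuclei. BCAS averaged over TBI ran from -0.61 to 0.56 for C1qa, -0.47 to 0.26 for C1qb, -0.46 to 0.24 for C1qc, -0.26 to 1.08 for Serping1 and -0.88 to 0.19 for Cd59a, and for C4b from -0.31 to 0.16, -0.0623 to 1.18 and 0.27 to 1.09. Where a group is left with 1 library, that library is assumed to vary like the others.

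Between classes, 38 to 43 of the 60 member differences passed over all settings, 38 to 40 of them without 1 library. Cd59a ran from -0.13 to 0.52 in oligodendrocyte-like against fibroblast-like and from 0.45 to 0.82 against neuron-like nuclei. With a replicate block, calls stayed at 0 and C1qa had 0.37 for TBI averaged over BCAS. The replicate numbers do not pair the samples: deviations of same-numbered libraries correlated at 0.51, 0.46 and 0.49 among control, BCAS and TBI but at -0.55, -0.59 and -0.53 with BCAS+TBI. Few microglia-like and fibroblast-like nuclei per library limit every value there.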
